A study of Mus musculus with 6 samples.

Results

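The integrated stress response and the cytosolic aminoacyl-tRNA synthetases were examined in C17.2 cells, an established, immortalised mouse line of neural stem and progenitor cells. The 37 genes were chosen by function. They are the 4 kinases that phosphorylate the initiation factor eIF2alpha, the transcription factors and regulators downstream of them, enzymes of asparagine and serine synthesis, the 4F2 amino acid transporter, and the genes of 20 cytosolic synthetase chains. Of these, 34 are listed in the deposited table, at 34 of its 7171 loci, and all 34 passed the filter on low values, as did 7039 loci in all. Eif2ak1, which encodes the heme-regulated kinase HRI, and Trib3 and Chac1, encoding a pseudokinase and a glutathione-degrading enzyme induced late in the response, were not analysed here.

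The labels give 3 groups with 2 biological replicates each. Control cells were kept in growth medium with 10% serum, heme-treated cells received heme at a dose and for a time not given in the sources used here, and neural induction cells were cultured in a medium with N2 supplement and the neurotrophin BDNF at 10 ng/ml. RNA was sequenced from TruSeq libraries of total RNA. The series title concerns erythroblasts, neurogenesis and mitochondrial dynamics. What distinguished the biological replicates (culture, passage or day) is not given, so the p-values measure the spread between these libraries, which may be technical.

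Phosphorylated eIF2alpha slows general translation and at the same time favours translation of the transcription factor ATF4. ATF4 binds C/EBP-ATF response elements and raises genes for amino acid synthesis, amino acid uptake and tRNA charging, together with CHOP, encoded by Ddit3. HRI is inhibited when heme binds it and also relays mitochondrial stress, PERK (Eif2ak3) senses unfolded protein in the endoplasmic reticulum, GCN2 (Eif2ak4) senses uncharged tRNA, and PKR (Eif2ak2) senses double-stranded RNA. Because ATF4 is controlled largely at translation, its mRNA is an incomplete reading of the pathway, and phosphorylation of eIF2alpha was not measured.

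The response element shows which of these genes carry an ATF4-type site near their start. The letters TGATGNAA were searched on both strands in the RefSeq promoter windows of GRCm38.p6, which run from 250 bases before to 50 bases after a gene's start. Windows were found for 25 of the 34 listed genes, and 6 of those genes held a match. By windows, that is 22.2% of 27, against 3.97% of all 32851 windows of the same length. The matches of 5 genes are given in the sense of the gene, 30 bases each, with the matching letters (or their reverse complement, TTNCATCA) in capitals.
Asns (chr6:7693214-7693243, minus strand): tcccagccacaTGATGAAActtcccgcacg
Gars (chr6:55037960-55037989, plus strand): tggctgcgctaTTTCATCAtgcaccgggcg
Tars (chr15:11399655-11399684, minus strand): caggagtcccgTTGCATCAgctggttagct
Iars (chr13:49682126-49682155, plus strand): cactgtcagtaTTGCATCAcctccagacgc
Yars (chr4:129189895-129189924, plus strand): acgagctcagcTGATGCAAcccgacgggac
Counted from the RefSeq start, the match lay at -23 to -16 in Asns, -30 to -23 in Gars, -15 to -8 in Tars, 8 to 15 in Iars and 4 to 11 in Yars. A match of letters is a description and does not show that ATF4 was bound in these cells.

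Libraries were checked before the comparisons. The heme replicate 2 value of each of 13963 transcripts was the replicate 1 value times 1.25 to 1.5, and both columns shared all 1150 transcripts at 0. Both columns were therefore treated as 1 sample, represented by heme replicate 1, and every heme value below rests on n = 1 library. Mapped sequence was 4.14 to 4.56 gigabases in the 5 remaining libraries. Of 8 neural progenitor markers 3 were listed, Nes, Sox2 and Vim, at 107.5 to 131.5, 13.6 to 19.8 and 664 to 798 FPKM (fragments per kilobase of transcript, relative to sequencing depth), and collagen Col1a1 of mesenchyme at 807 to 1075. No gene of the astrocyte, microglial, erythroid or endothelial lists was listed. Control replicate 2 was the highest of the 5 libraries for 28.2% of all tested loci and the lowest for 32.8%. Among the loci where it stood apart were stress genes outside the pathway. Hmox1, the heme oxygenase induced by heme and oxidative stress, was at 222 FPKM there and at 43.7 to 79.4 in the other libraries. The heme library itself was at 61.9, between the controls. Of 9 tested genes listed for the heme and NRF2 response, 0 had a positive log2 fold change with heme against control, and the median was -0.375. Over all 7039 tested loci, 3463 had a positive value. Control replicate 2 was the higher control for each of these genes. The heme library lay between the controls for all of them but Srxn1, at 15.0 FPKM with heme and 16.1 and 40.6 in control. The control mean in those values includes control replicate 2. Whether the cells of the heme library responded to heme was not tested.

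Most genes of the pathway sat at nearly the same level in every library. Levels below are FPKM summed over the listed transcripts of a gene's locus. Over the 34 genes, the highest of the 5 libraries divided by the lowest (each with 1 FPKM added) had a median of 1.09, and it was below 1.2 for 26 genes. The same ratio had a median of 1.31 over all 7039 tested loci and of 1.16 over the 1769 loci with a mean of at least 40 FPKM, a limit set after seeing the data. Of the pathway genes 76.5% lay below 1.2, against 32.4% of all tested loci and 60.4% of those at 40 FPKM or more. The exception above 2 was Farsa, at 2.07. These are bulk libraries, in which fewer cells of a type and less RNA per cell cannot be told apart. In control replicate 2, the library with high Hmox1, the median pathway gene was at 1.01-fold of the median of the other 4 libraries, with 18 of 34 genes above it. Differences in opposite directions can cancel in such a median. Control replicate 2 was the highest library for 11 of the 34 genes and the lowest for 10, against 28.2% and 32.8% of all tested loci.

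**Figure D1:**
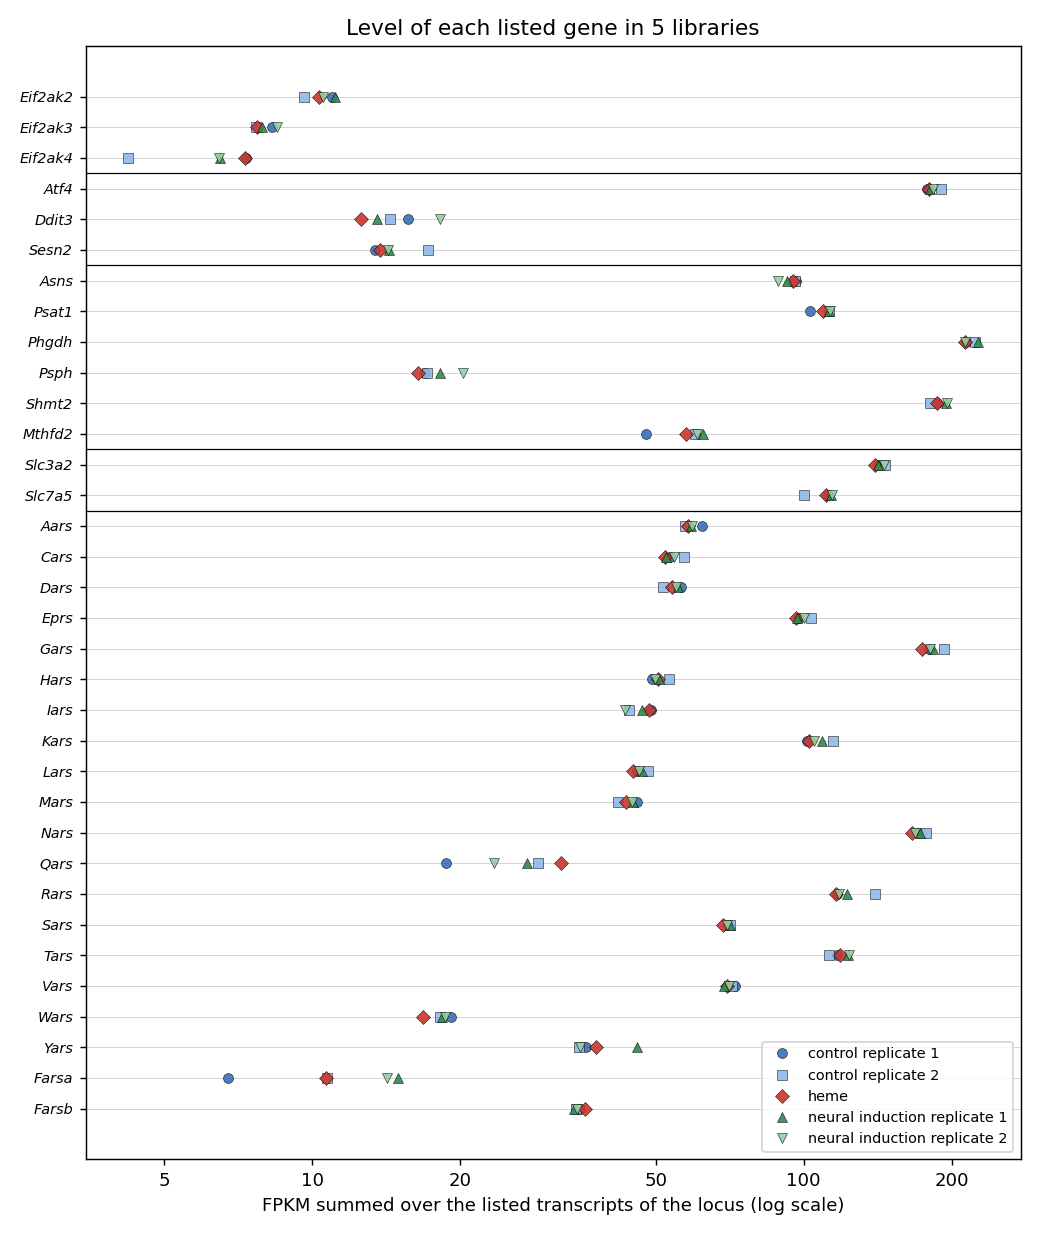
FPKM (log scale) of the 34 listed genes in 5 libraries, with 1 point per library and rules between the functional groups; the heme point is a single library. Points of most genes overlap, while Eif2ak4, Ddit3, Qars and Farsa spread over 1.4-fold or more, from 6.74 to 15.0 FPKM for Farsa.

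**Figure D2:**
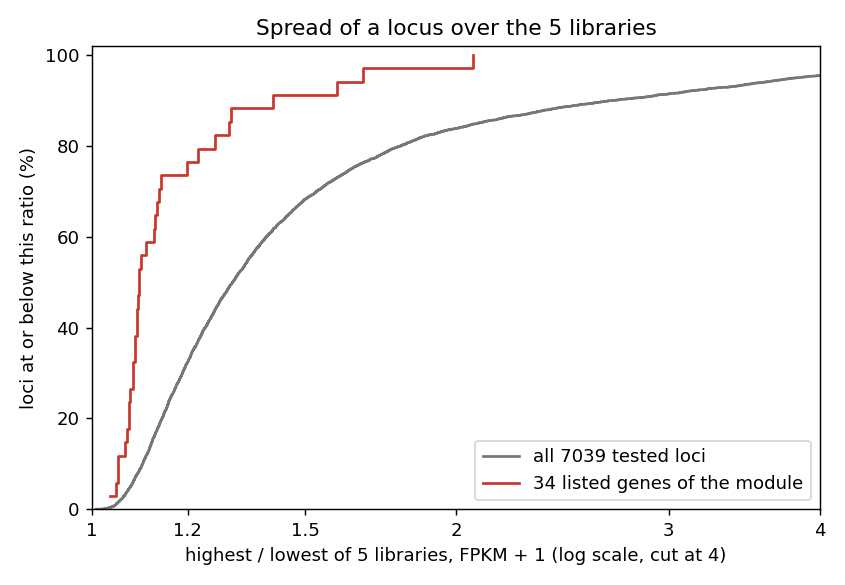
Cumulative share of loci (percent) against the ratio of the highest to the lowest of 5 libraries (FPKM + 1, log scale, cut at 4), for the 34 genes and for all 7039 tested loci. The curve of the pathway genes rises earlier, with a median of 1.09 against 1.31.

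Among the eIF2alpha kinases, none differed between conditions beyond its error. Eif2ak3 (PERK, chromosome 6, 70844515 to 70905245, GRCm38) was at 8.27 and 7.71 FPKM in the controls, 7.72 in the heme library and 7.90 and 8.50 after neural induction. Eif2ak2 (PKR) was at 10.96 and 9.62 FPKM in control, 10.3 with heme and 11.1 and 10.6 after induction. For both kinases the libraries of all conditions overlapped. Eif2ak4 (GCN2) was at 7.34 and 4.23 FPKM in control, 7.32 with heme and 6.51 and 6.47 after induction. Control replicate 2 was the low library for GCN2, and the heme and induction libraries lay between the controls. Its log2 fold change (on the FPKM + 1 scale, here and below) with heme was 0.33 ± 0.35 (SE), with a 95% interval of -0.61 to 1.27, and it was -0.003 without control replicate 2 and 0.67 without control replicate 1.

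Atf4 mRNA was abundant and flat. Atf4 (chromosome 15, 80255184 to 80257540) stood at 178 and 190 FPKM in control, 180 in the heme library and 181 and 183 after neural induction. All other libraries lay between the controls. The log2 fold change was -0.032 ± 0.084 (SE) with heme, with a 95% interval of -0.26 to 0.19. After induction it was -0.017 ± 0.069, with an interval of -0.20 to 0.17. These intervals come from limma, which for heme assumes that the lone library varies like those of the other groups.

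CHOP mRNA was low and more variable. Ddit3 (chromosome 10, 127290774 to 127296288) was at 15.7 and 14.4 FPKM in control, 12.6 in the heme library and 13.5 and 18.2 after induction. The heme library was the lowest of the 5, but the induction replicates differed from each other by more than heme differed from either control. The log2 fold change with heme was -0.24 ± 0.22 (SE), with an interval of -0.82 to 0.35 and an adjusted p of 0.998 in limma. The Ddit3 locus overlaps the end of Mars on the other strand by 68 bases, and use of strand in the authors' processing is not given in the sources used here, so reads there are uncertain. Sesn2, which restrains the growth kinase complex mTORC1 when leucine is short, was at 13.4 and 17.2 FPKM in control, 13.8 with heme and 14.4 and 14.3 after induction. Control replicate 2 was the high library for Sesn2, and the rest lay within 1 FPKM of each other.

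The enzymes of asparagine, serine and folate metabolism varied little. Asns, the asparagine synthetase and a standard ATF4 target, was at 96.6 and 96.2 FPKM in control, 95.1 with heme and 92.3 and 88.5 after induction. Both induction libraries lay below both controls, by a log2 fold change of -0.091 ± 0.068 (SE), with an interval of -0.27 to 0.089. Phgdh, the first enzyme of serine synthesis, was at 214 and 223 FPKM in control, 213 with heme and 226 and 213 after induction. Psat1, the second enzyme, was at 103 and 113 FPKM in control, 110 with heme and 113 in both induction libraries. For both genes the induction libraries overlapped the controls, and the heme library lay between the controls for Psat1 and was the lowest of the 5 for Phgdh.

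Psph, the phosphatase that completes serine synthesis, was at 17.0 and 17.1 FPKM in control, 16.4 with heme and 18.2 and 20.3 after induction. Shmt2, the mitochondrial serine hydroxymethyltransferase, was at 187 and 181 FPKM in control, 187 with heme and 195 and 196 after induction. Mthfd2, the next enzyme of the mitochondrial folate pathway, was at 47.8 and 60.2 FPKM in control, 57.7 with heme and 62.3 and 60.7 after induction. For these 3 genes both induction libraries lay above both controls. Their log2 fold changes were 0.16 ± 0.12 for Psph, 0.084 ± 0.062 for Shmt2 and 0.19 ± 0.13 for Mthfd2 (SE), with an adjusted p of 0.934 in limma for each. Control replicate 1 was the low library for Mthfd2.

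The transporter 4F2 imports large neutral amino acids as a pair of a heavy chain, Slc3a2, and a light chain, Slc7a5. Slc3a2 was at 142 and 146 FPKM in control, 140 with heme and 141 and 145 after induction, with the groups overlapping after induction. Slc7a5 was at 112 and 100.3 FPKM in control, 111 with heme and 114 in both induction libraries. Its low library was control replicate 2. The Slc7a5 locus is overlapped on the other strand by the annotated gene Gm20388 over 26545 bases, so its reads are uncertain in the same way. Other loci of the pathway overlap annotated genes too. Among them are Sesn2 (Gm12981, 6089 bases), Mthfd2 (Gm43890, 2799) and Aars (Exosc6, 1326) on the same strand, and Farsb (Sgpp2, 2315) on the other.

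The synthetases, which join each amino acid to its tRNA, were expressed over a wide range of levels and differed little between libraries. Gars, the glycyl-tRNA synthetase with an element in its promoter window above, was at 180 and 193 FPKM in control, 175 with heme and 183 and 181 after induction. Nars, for asparagine, was close to it, at 171 and 178 FPKM in control, 166 with heme and 172 and 168 after induction. In both, heme was the lowest library by a small margin. Rars, Tars, Kars and Eprs, for arginine, threonine, lysine and for glutamate with proline, lay between 96.6 and 140 FPKM in every library. Sars, Vars, Aars, Cars, Dars, Hars, Iars, Lars and Mars lay between 41.9 and 72.6, Yars and Farsb between 34.1 and 45.8, and Wars between 16.8 and 19.2. The only listed transcript of Mars, ENSMUST00000145275, is annotated as one that retains an intron, so its level is not that of an annotated protein-coding transcript.

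Genes with a printed element were not compared as a group with genes without one. Of the synthetases among them, Tars was at 117 and 113 FPKM in control, 119 with heme and 123 and 124 after induction, above both controls in all 3 other libraries. The log2 fold change of Tars was 0.049 ± 0.079 with heme and 0.10 ± 0.065 after induction (SE). Gars (-0.095 ± 0.086) and Asns (-0.020 ± 0.083) had negative values with heme, and Yars (0.091 ± 0.18) and Iars (0.061 ± 0.12) positive ones. The adjusted p was at least 0.934 in limma for each of these genes in both comparisons.

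Qars and Farsa were the synthetase genes that varied most. Qars, for glutamine, was at 18.7 and 28.8 FPKM in control, 32.0 in the heme library and 27.4 and 23.5 after induction. The heme library was the highest, but the controls differed from each other by more than heme differed from control replicate 2 (log2 fold change 0.45 ± 0.28 SE, interval -0.30 to 1.196). No listed transcript of Qars was annotated as protein-coding. ENSMUST00000207126 is annotated as retaining an intron, ENSMUST00000123316 had no type in the annotation used, and the remaining transcript was unnamed. Farsa, the catalytic chain of phenylalanyl-tRNA synthetase, was at 6.74 and 10.7 FPKM in control, 10.7 with heme and 15.0 and 14.2 after induction. Both induction libraries lay above both controls, with a log2 fold change of 0.71 ± 0.24 (SE), a 95% interval of 0.071 to 1.35 and an adjusted p of 0.934 in limma. Farsb, the partner chain of the same enzyme, was at 35.1 and 34.4 FPKM in control, 35.9 with heme and 34.1 and 34.7 after induction. Its log2 fold change after induction was -0.015 ± 0.082.

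In the heme comparison, 0 of the 34 genes were called by limma at an adjusted p below 0.05, where 0.0426% of the 7039 loci were (3 loci, all lower), and the smallest adjusted p of a pathway gene was 0.998. At an unadjusted p below 0.05 there were also 0 pathway genes, against 3.59% of all loci. The median log2 fold change of the 34 genes was -0.036, beside -0.004 over all tested loci, and the values ran from -0.24 (Ddit3) to 0.45 (Qars). The heme library lay below both controls for 14 genes, or 41.2%, against 31.1% of all loci, and above both for 4, or 11.8%, against 25.5%. The 95% interval stayed within a doubling in either direction for 31 genes, all but Eif2ak4, Qars and Farsa, and within 0.5 on the log2 scale for 26.

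After neural induction, 0 of the 34 genes were called by limma, where 0.0142% of all loci were (1 locus, lower). Farsa alone had an unadjusted p below 0.05 (0.0361, lowest adjusted p 0.934), which is 2.94% of the genes against 3.05% of all loci. The median log2 fold change was -0.005, beside 0.019 over all tested loci. Both induction libraries lay above both controls for 6 genes (Psph, Shmt2, Mthfd2, Slc7a5, Tars and Farsa), or 17.6%, against 18.2% of all loci, and below both for Asns and Vars, or 5.88%, against 13% of all loci. The interval stayed within a doubling for 33 genes, all but Farsa. With 2 libraries a group, an exact permutation test of 1 gene cannot give a two-sided p below 0.333.

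Heme and neural induction were also compared directly. Of the 34 genes limma called 0, against 0.0568% of all loci (4 loci), and 0 had an unadjusted p below 0.05, against 3.38%. The heme value was below the induction mean for 27 genes, or 79.4%, against 56.9% of all loci, with a median log2 difference of -0.043, beside -0.023 over all loci. The widest differences were those of Farsa (-0.42), Qars (0.33) and Ddit3 (-0.30).

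**Figure D3:**
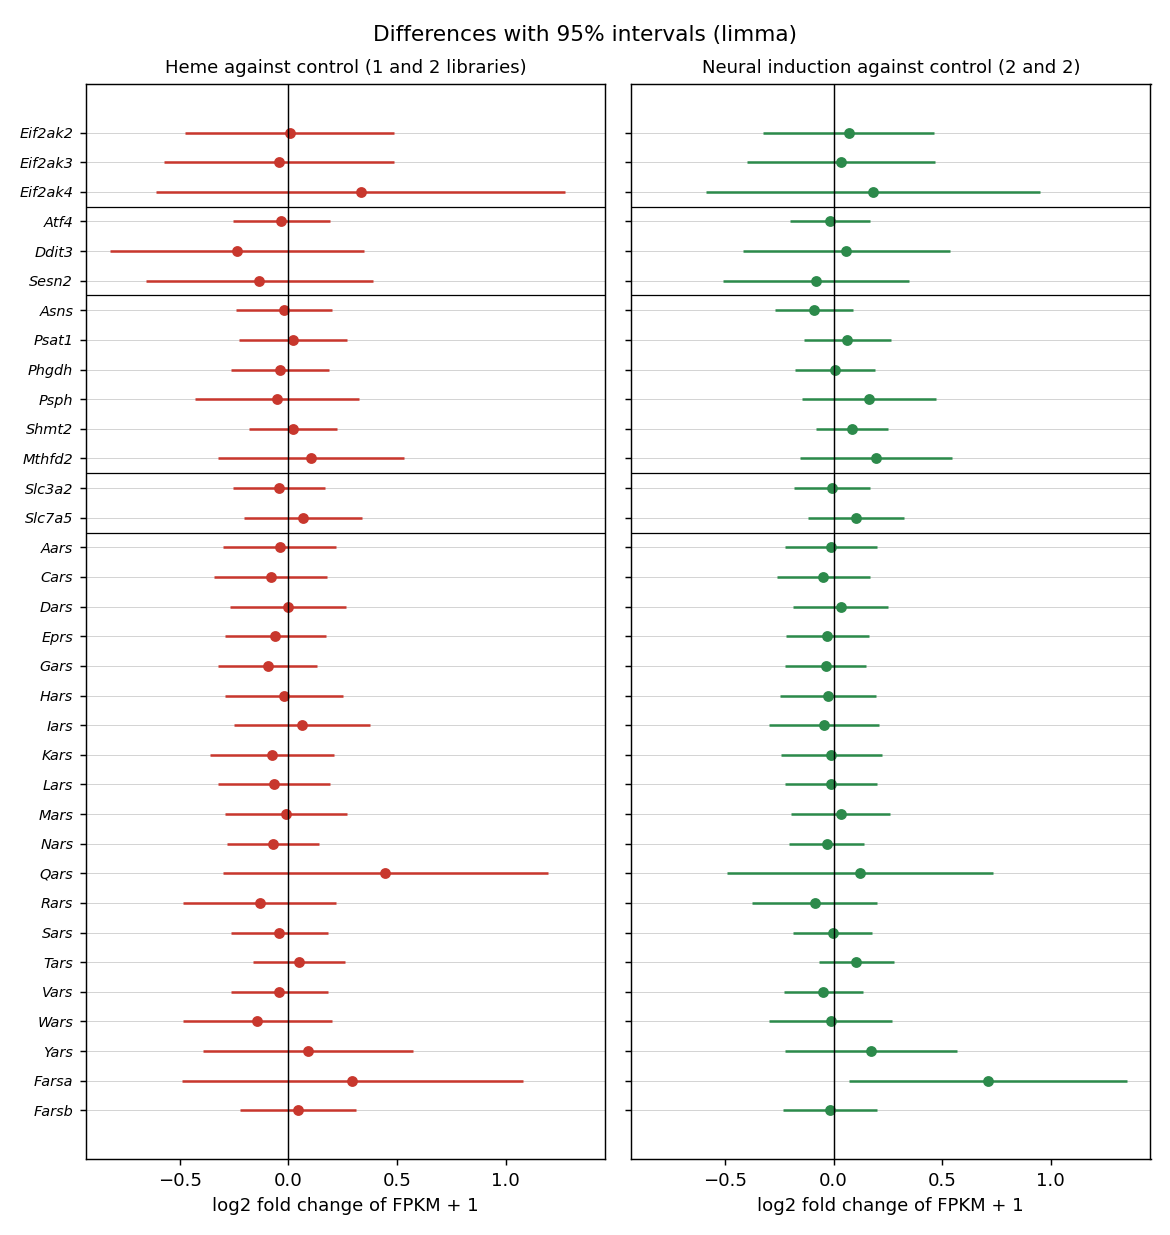
Log2 fold change (FPKM + 1) of each gene with its 95% interval from limma, for heme against control (1 and 2 libraries) and neural induction against control (2 and 2). Intervals cross 0 for every gene and comparison except Farsa after induction (0.071 to 1.35).

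Beneath these flat sums, the transcripts assigned to a gene differed between libraries. Of 19 pathway loci with more than 1 listed transcript, 8 (42.1%) had a leading transcript that was not the same in all 5 libraries, against 60.9% of 3964 such loci in the table. No single transcript of these genes was called, with 0 of 64 tested in each comparison, where 0.0728% of 13737 transcripts were called with heme, 0.00728% after induction and 0.0801% between heme and induction. At 7 of the 8 loci the leading transcript differed between replicates of control or of induction, and at 0 did both induction libraries share a leading transcript that neither control had. The same shares over all loci were not counted, so these counts cannot be read as particular to the pathway.

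Asns gave the plainest case. ENSMUST00000031766, which begins 45 bases upstream of the RefSeq start and so includes the element printed above, held 97.3% of the locus in control replicate 1 and 97.7% in induction replicate 1. In control replicate 2, the heme library and induction replicate 2 it held 11.3%, 12.3% and 14.9%. There ENSMUST00000115542, which begins 338 bases downstream of that start, took the rest, at 85.3, 83.3 and 75.4 FPKM. Each group of 2 libraries was split, while the sums stayed between 88.5 and 96.6 FPKM. Both transcripts are annotated as protein-coding, with 12 exons each.

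Farsb was the pathway locus whose leading transcript differed in the heme library only. ENSMUST00000189529, annotated as a target of nonsense-mediated decay, was at 11.03 and 9.59 FPKM in control, 29.1 in the heme library and 9.03 in both induction libraries, or 80.9% of the locus with heme and 26.1% to 31.4% elsewhere. The protein-coding ENSMUST00000170217 moved the other way, at 1.96 FPKM with heme and 12.4 to 14.2 in the others. Their log2 fold changes with heme were 1.41 ± 0.25 and -2.27 ± 0.30 (SE), with adjusted p of 0.442 and 0.251 in limma, so neither was called. The locus sum with heme, 35.9 FPKM, was within 2 FPKM of every other library.

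The kinase PERK showed a split that crossed the groups. Its annotated transcript ENSMUST00000034093 held 100% of the locus in control replicate 1, 76.4% in control replicate 2 and 88.2% in induction replicate 1, but 14.3% in the heme library and 15.6% in induction replicate 2. An unnamed transcript with the same number of exons held the rest. Summed over transcripts with the gene name only, Eif2ak3 had log2 fold changes of -1.93 with heme in place of -0.043 and -0.89 after induction in place of 0.034, and Aars one of 0.91 with heme in place of -0.040, and neither was called. Iars likewise had ENSMUST00000165316 at 20.7 and 21.3 FPKM in control replicate 2 and induction replicate 2, and at 0.048 to 0.25 in the other 3 libraries. At Yars, an unnamed transcript held 70.9% of the locus in induction replicate 1 and was listed at 0 elsewhere. Replicates of induction were split in these 3 loci, and at Iars those of control were split as well.

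At Psph the control and induction values of each transcript did not overlap, although the leading transcript was the same in all 5 libraries. Over the whole table, 684 of 13737 single transcripts had an unadjusted p below 0.05 in limma after induction. An unnamed transcript was at 4.98 and 3.999 FPKM in control and 2.86 with heme and was listed at 0 in both induction libraries, with a log2 fold change after induction of -2.45 ± 0.52 (SE, unadjusted p 0.00918, adjusted p 0.558 in limma). The protein-coding ENSMUST00000031399 was at 12.03 and 13.1 FPKM in control, 13.6 with heme and 18.2 and 20.3 after induction. Both induction libraries lay above both controls for it, by a log2 fold change of 0.58 ± 0.18 (SE, adjusted p 0.846 in limma) in place of the 0.16 of the locus, and neither transcript was called.

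The wide spread of Farsa came with such an assignment. Its 2 named transcripts and 1 unnamed one cover the locus. The unnamed transcript was listed at 0 in control replicate 1, where the sum was lowest, and at 4.94 to 7.88 FPKM in the other 4 libraries. Without the unnamed transcript the sums were 6.74 FPKM in control replicate 1 and 4.53 in control replicate 2, 5.73 with heme and 7.11 and 6.58 after induction, so that the groups overlapped, and the log2 fold change after induction was 0.26 in place of 0.71. With heme the log2 fold change of the whole locus was 0.295, and it was -0.005 without control replicate 1. Other transcripts of the gene are not in these sums. At Qars the unnamed transcript was at 2.51 FPKM in control replicate 1 and 15.6 in the heme library. Without it Qars was at 16.2 and 17.2 FPKM in control, 16.5 with heme and 15.0 and 20.2 after induction, and the heme log2 fold change was -0.021 in place of 0.45.

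**Figure D4:**
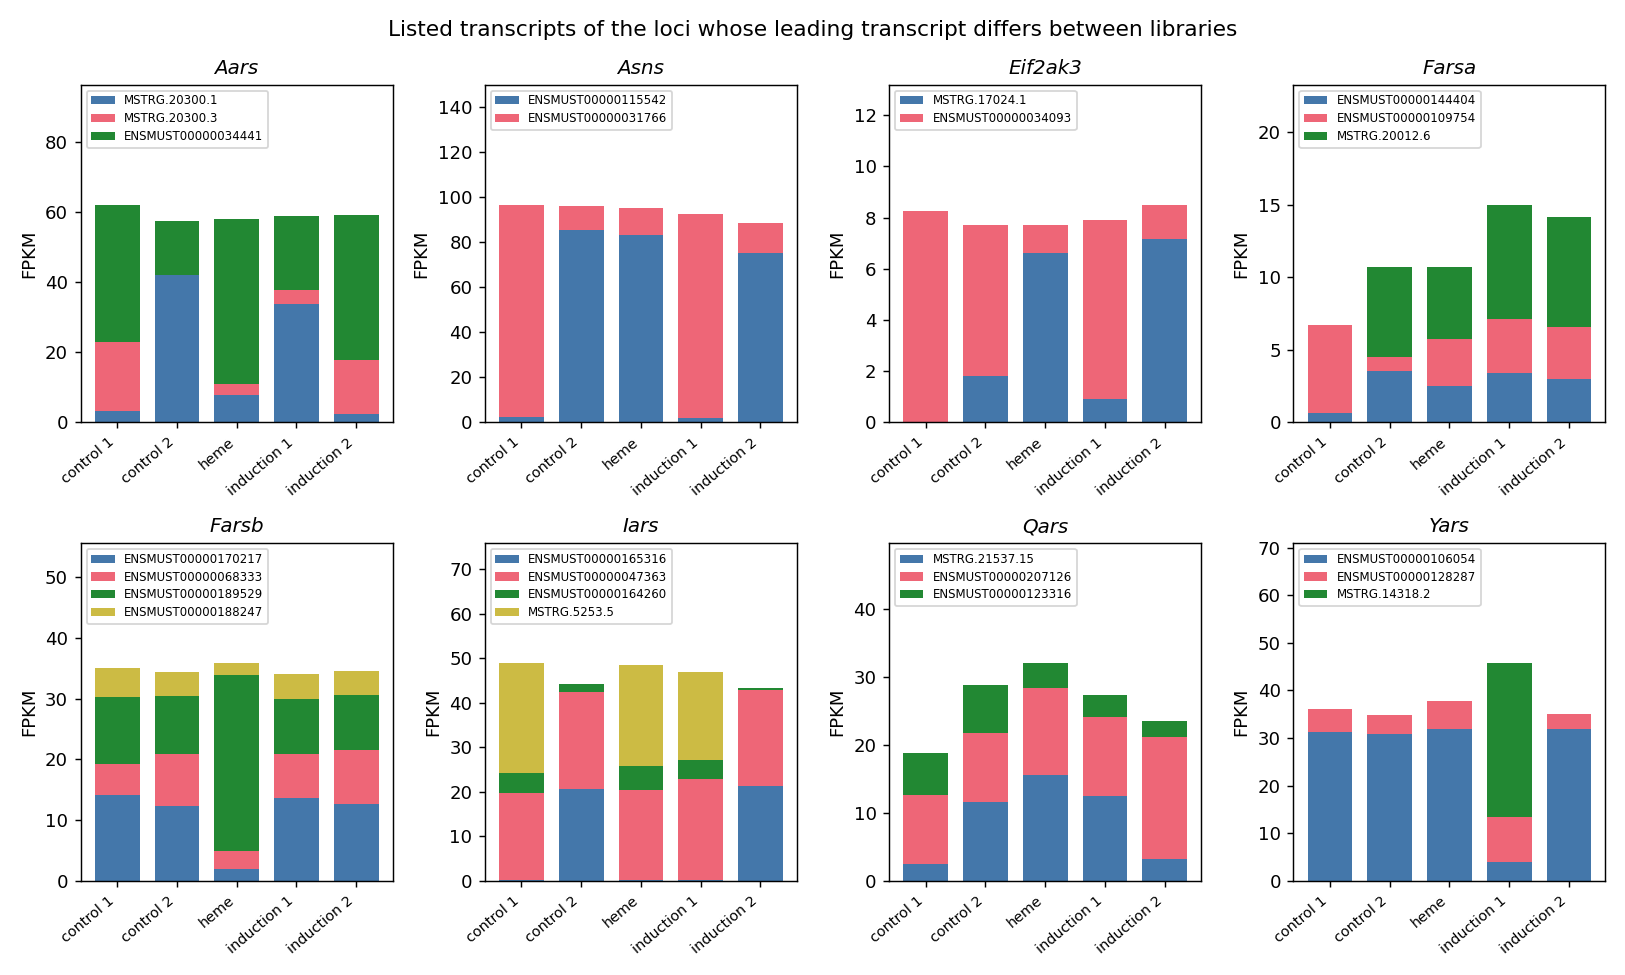
Stacked FPKM of the listed transcripts at the 8 loci whose leading transcript differs between libraries, with 1 bar per library (replicate numbers after control and induction) and 1 colour per transcript. Asns keeps its total between 88.5 and 96.6 FPKM while its leading transcript changes within each group, and Farsb changes in the heme library.

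Among further genes of the pathway, none of 21 tested loci of other ATF4 targets and partners was called in any comparison, with a median log2 fold change of -0.005 with heme and 0.024 after induction. The widest values were those of Nupr1, a stress-induced chromatin regulator (10.4 and 27.0 FPKM in control, 24.6 with heme, 18.5 and 16.9 after induction), Slc7a11, the cystine transporter (3.90 and 5.74, 4.07, 4.64 and 1.67) and Slc6a9, a glycine transporter (18.2 and 18.1, 14.8, 15.5 and 9.91). Of the genes for eIF2, its exchange factor eIF2B and its phosphatase, 0 of 9 were called. Eif2b2 and Eif2b4, subunits of eIF2B, had the widest values there, with Eif2b4 at 1.17 and 4.48 FPKM in control, 6.12 with heme and 4.33 and 4.27 after induction. Eif2b2 was at 3.91 and 5.57 FPKM in control, 6.41 with heme and 9.94 and 6.60 after induction.

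Of the mitochondrial synthetases 0 of 6 tested loci were called. Tars2 was at 4.55 and 4.997 FPKM in control, 4.62 with heme and 2.17 and 1.85 after induction, with a log2 fold change after induction of -0.94 ± 0.27 (SE, adjusted p 0.934 in limma). Vars2 was at 2.84 and 3.02 FPKM in control, 5.31 with heme and 4.998 and 3.14 after induction. Lars2 differed most between replicates, at 128 and 7.33 FPKM in control, 6.43 with heme and 7.25 and 55.4 after induction. Aimp1 and Aimp2, scaffold proteins that hold several cytosolic synthetases in a complex, stayed between 34.9 and 39.6 FPKM in all libraries.

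The tested genes of the stress branches that feed the pathway were not called either. Of the unfolded protein response of the endoplasmic reticulum, 0 of 11 loci were called. Hspa5, the chaperone BiP, was at 360 and 156 FPKM in control, 167 with heme and 174 and 357 after induction, so each replicated group held a high and a low library. Manf, a secreted protein of the same response, was at 8.63 FPKM in control replicate 2 and at 24.6 to 30.7 in the others, and Dnajb9, a co-chaperone, at 17.9 there and 11.7 to 12.8 elsewhere. Of the mitochondrial proteases and chaperones tied to the relay to HRI, 0 of 5 tested loci were called. Oma1 and Dele1, also chosen for that relay, were not analysed here, so these values do not cover the whole relay. Hspd1 and Hspe1, the mitochondrial chaperonin, were lowest with heme, at 367 FPKM against 381 and 411 in control and at 184 against 195 and 207, while Hspa9 and Clpp had log2 fold changes of 0.012 ± 0.076 and 0.053 ± 0.14.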

How the data were processed

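The submitters' processing notes name StringTie, HISAT2 and edgeR and the build GRCm38 (mm10), without versions. The authors deposited FPKM and coverage (signal per base) for 15113 transcripts at 7171 StringTie loci; other transcripts were not used here. FPKM were summed over the listed transcripts of each locus. The coverage to FPKM ratio gave mapped bases; read counts were not used, so no counting interval is given. Limma 3.58.1 in R 4.3.3 was fitted on log2(FPKM + 1) of all loci with at least 1 FPKM in at least 2 of 5 libraries. Group was the only term, with an intensity trend and 2 residual degrees of freedom. The fit was run on simulated data with changes in the induction libraries only. Comparisons with the lone heme library were not simulated. Two-sided p-values were adjusted over 7039 loci by Benjamini-Hochberg, with a threshold of 0.05. Every listed gene of the pathway was named, and from each further list any called gene plus the 2 widest in each comparison with control. Genes, lists and tests were chosen with earlier results of these data known. The promoter match of a further gene is not reported here. Promoters came from RefSeq, transcript types from GENCODE M21. Alternatives covered pseudocount, filters, sums, scaling, heme columns, block and left-out libraries. The authors' deposited fold change tables were not used. Pairing of the libraries by replicate number was looked at by the correlation given at the end and was not used in the fit.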

Additional observations from a re-analysis of the deposited data

How the results depend on the processing

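In the 2 comparisons with control, no gene of the pathway was called under any of the alternatives run, with a lowest adjusted p of 0.246 in limma, on all 6 columns. Locus sums of these genes were not checked under the alternatives for heme against induction. Loci called over the whole table were 3 for heme, 1 for neural induction and 4 between heme and induction. On single transcripts they were 10 for heme and 11 between heme and induction, and on sums over transcripts with the gene name only 1, 0 and 1. On all 6 columns they were 207, 51 and 210, with heme columns that are not independent. With a pseudocount of 0.1 or without a filter the induction count was 0. Leaving out 1 control or induction library gave 0 for each comparison, in fits with 1 residual degree of freedom. The correlation of replicate differences between control and induction was -0.051 over 7039 loci, which shows no pairing by replicate number but cannot exclude it. Transcripts of Asns and Iars split by replicate number in control and induction, and the leading transcripts of Aars and Qars split the other way. With the replicate block the induction count was 2, and with heme the values were Eif2ak2 -0.053, Hars 0.003, Iars -0.002, Yars -0.014. Of 68 gene values, none changed sign with another pseudocount or filter, and 1 with median centring (Phgdh -0.008 after induction). Psph after induction was 0.58 on sums over transcripts with the gene name only. On these sums, which drop unnamed transcripts of a locus, the signs turned to Psph 0.10, Aars 0.91, Iars -0.34, Qars -0.021 for heme and Eif2ak2 -0.30, Eif2ak3 -0.89, Aars 0.26, Iars 0.067, Yars -0.68 for induction. The heme replicate 2 column is higher by construction (the mean of both heme columns put the median of all loci at 0.23 against control), and including it turned 22 heme values. With the mean of both heme columns the log2 fold changes were Eif2ak3 0.21, Atf4 0.19, Ddit3 0.052, Sesn2 0.14, Asns 0.25, Phgdh 0.19, Psph 0.18 and Slc3a2 0.22. They were Aars 0.16, Cars 0.20, Dars 0.28, Eprs 0.16, Gars 0.14, Hars 0.27, Kars 0.18 and Lars 0.14. The rest were Mars 0.19, Nars 0.22, Rars 0.066, Sars 0.20, Vars 0.24 and Wars 0.048. On all 6 columns the corresponding values were Eif2ak3 0.19, Atf4 0.17, Ddit3 0.028, Sesn2 0.12, Asns 0.23, Phgdh 0.17, Psph 0.16 and Slc3a2 0.20. Others were Aars 0.15, Cars 0.18, Dars 0.26, Eprs 0.15, Gars 0.13, Hars 0.24, Kars 0.16 and Lars 0.13. The last were Mars 0.18, Nars 0.19, Rars 0.054, Sars 0.18, Vars 0.22 and Wars 0.036. Leaving out 1 library turned the sign of gene values, most often without control replicate 2 (24 of 68) or control replicate 1 (12 of 68), and the ranges follow. For heme they were Eif2ak2 -0.079 to 0.092, Eif2ak3 -0.088 to 0.003, Eif2ak4 -0.003 to 0.67, Atf4 -0.080 to 0.017, Sesn2 -0.30 to 0.036 and Psat1 -0.040 to 0.086. Further heme ranges were Shmt2 -0.001 to 0.045, Mthfd2 -0.061 to 0.27, Slc7a5 -0.013 to 0.15, Aars -0.096 to 0.015, Dars -0.062 to 0.057 and Hars -0.077 to 0.039. Further heme ranges were Iars -0.011 to 0.13, Kars -0.16 to 0.012, Mars -0.074 to 0.049 and Farsa -0.005 to 0.59. After induction they were Eif2ak2 -0.016 to 0.15, Eif2ak3 -0.013 to 0.081, Eif2ak4 -0.15 to 0.52, Atf4 -0.065 to 0.031, Ddit3 -0.14 to 0.26 and Sesn2 -0.25 to 0.088. Further induction ranges were Phgdh -0.035 to 0.051, Slc3a2 -0.030 to 0.016, Aars -0.069 to 0.042, Cars -0.094 to 0.001, Dars -0.027 to 0.092 and Eprs -0.068 to 0.012. Next came Gars -0.088 to 0.016, Hars -0.084 to 0.032, Iars -0.12 to 0.029, Kars -0.098 to 0.074, Lars -0.051 to 0.027 and Mars -0.029 to 0.094. The last ranges were Qars -0.18 to 0.42, Rars -0.22 to 0.043, Sars -0.016 to 0.008, Wars -0.050 to 0.022 and Yars -0.015 to 0.36. The cause of these sign changes was not tested. No counting depth per gene is known.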
